A study of Homo sapiens with 8 samples.

Results

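The 10 genes described here encode regulators of the integrated stress response: ATF4, ATF5, ATF3, DDIT3, CEBPB, CEBPG, TRIB3, NUPR1, PPP1R15A and JDP2. They were chosen by name, with earlier results of these data known. All 10 were found among the 15745 gene rows of the count table and were kept whether or not they changed. Of the 10, 7 are transcription factors with a basic leucine zipper (bZIP), whereas TRIB3 is a pseudokinase, PPP1R15A is a phosphatase subunit and NUPR1 is a small chromatin-associated protein, so the 10 are called regulators here. RNA-seq was performed on wild-type HuH7 cells, a human hepatoma line. All cells were kept in glucose-free DMEM at 1% oxygen for 6 h and were then returned to normoxia for 6 h, a model of ischemia-reperfusion (oxygen-glucose deprivation and reperfusion, OGD/R). During reoxygenation the medium held DMSO alone in 4 libraries (I/R+DMSO). In the other 4 (I/R+Rk2) it held the ginsenoside Rk2, a ginseng saponin, at 20 µM, dissolved in DMSO. The comparison asks how Rk2 altered these transcripts after OGD/R, and cells that never went through OGD/R were not analysed here.

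In the integrated stress response, kinases that sense different stresses phosphorylate the translation factor eIF2. General protein synthesis then slows, while mRNAs with short upstream open reading frames, those of ATF4, ATF5, DDIT3 and PPP1R15A among them, are translated better. ATF4 activates genes of amino acid synthesis and uptake together with further regulators such as ATF3, DDIT3 (CHOP) and TRIB3. PPP1R15A (GADD34) brings a phosphatase to eIF2 and closes the loop. Hepatocytes meet this response during nutrient shortage, hypoxia and load on the endoplasmic reticulum (ER). Since much of this control acts on translation and protein stability, RNA levels show only one layer of it.

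The libraries held 16374082 to 30310479 counts, with a median of 19377044, and the replicates of a group differed beyond counting error (16.2 to 29.8 as chi-square per degree of freedom). The labels do not say whether replicates came from separate cultures, so p-values measure the spread between these libraries, which may be technical. No batch is given in the labels. All 14 hepatocyte markers on a fixed list were detected, and their summed FPKM ranged from 5503 to 6119 under DMSO and from 5876 to 6025 under Rk2. AFP, at a mean of 2369 FPKM under DMSO, weighed most in this sum. Of 9 markers of immune, stromal and endothelial cells, CD68, a lysosomal protein abundant in macrophages, was at 24.1 to 32.6 FPKM and PECAM1, an endothelial adhesion protein, at 1.07 to 2.1 FPKM. Another 4 (PTPRC, DCN, VWF and CDH5) were at 0 in every library, and the summed level of the 9 ranged from 28.2 to 34.2 FPKM under DMSO and from 26.7 to 34.4 FPKM under Rk2. Levels below are CPM (read counts scaled to a common library size) normalized with edgeR's TMM factors unless FPKM, which also divides by transcript length, is named. The log2 change of a gene is the log2 fold change from I/R+DMSO to I/R+Rk2 fitted by edgeR. A gene was called higher or lower when its adjusted p was below 0.05 in edgeR's quasi-likelihood test, adjusted by Benjamini-Hochberg over 12910 genes. Of the 14 hepatocyte markers, APOB was called higher (log2 change 0.61, adjusted p = 0.0124, edgeR). FGA and FGB were called lower (-0.34 and -0.27, adjusted p = 0.00386 and 0.0462, edgeR), and 11 were not called. The shares were 7.14% higher and 14.3% lower, beside 11.0% and 7.24% of all tested genes. Longer genes tended to have higher log2 changes (rank correlation 0.388 over genes, which are not replicates of each other), and after a length correction 7 regulators were called.

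Of the 10 regulators, 6 were called higher in I/R+Rk2 (ATF3, DDIT3, CEBPB, CEBPG, ATF4 and PPP1R15A), 1 was called lower (ATF5) and 3 were not called (TRIB3, NUPR1 and JDP2). Across all tested genes 11.0% were called higher and 7.24% lower. ATF3, DDIT3 and CEBPB were also more than 1.5-fold higher, as were 2.46% of tested genes. The median log2 change of the 10 was 0.42, against -0.002 over all tested genes. For 8 regulators the ranges of the groups were apart. In 7 of them, the 6 called higher and TRIB3, every I/R+Rk2 library was above every I/R+DMSO library, an arrangement found in 15.4% of tested genes. The reverse, seen for ATF5, was found in 12.9%. In these bulk libraries, a change in the number of cells that express a gene and a change in its RNA per cell cannot be told apart.

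**Figure D1:**
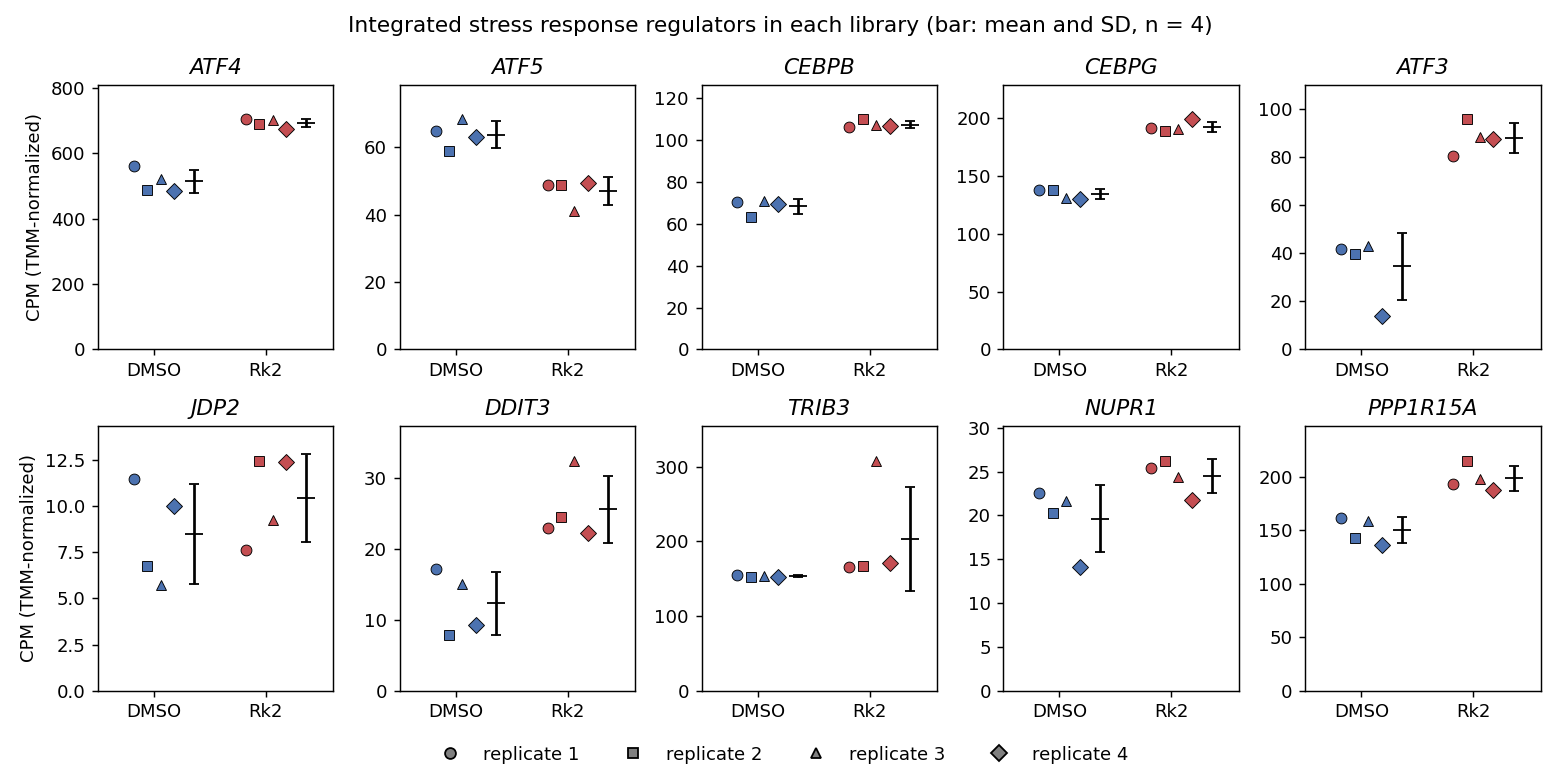
Normalized CPM (vertical axes, each from 0) of the 10 regulators in the 4 I/R+DMSO libraries (blue) and the 4 I/R+Rk2 libraries (red); symbols give the replicate number and black bars the mean and SD. ATF3 in I/R+DMSO replicate 4 (13.8 CPM) and TRIB3 in I/R+Rk2 replicate 3 (308.1 CPM) lie far from the rest of their groups, and only NUPR1 and JDP2 have overlapping groups.

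ATF4, the central transcription factor of the response, lies at chr22:39519695-39522685 on the plus strand (hg38, GENCODE v29, as for all loci below). Its level was 562.3, 487.3, 522.0 and 486.4 CPM in I/R+DMSO replicates 1 to 4 and 704.1, 689.6, 703.6 and 676.0 CPM in I/R+Rk2. All I/R+Rk2 libraries were above all I/R+DMSO libraries, and the means were 514.5 ± 35.9 and 693.3 ± 13.4 CPM (SD, n = 4 per group). ATF4 was thus 1.35-fold higher, a log2 change of 0.43 (standard error 0.0521, adjusted p = 0.00185, edgeR). The 4 processed ATF4 pseudogenes of the annotation are not rows of the count table, and how reads shared with them were counted is not given in the sources used here.

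The C/EBP factors CEBPB and CEBPG, which pair with ATF4 on DNA, had the smallest standard errors of the 10. CEBPB (chr20:50190734-50192689, plus strand), also a factor of the acute-phase response of the liver, was at 70.2, 63.3, 70.8 and 69.4 CPM in I/R+DMSO and at 106.3, 109.9, 107.0 and 106.6 CPM in I/R+Rk2. The gap between the groups was several times the range within either. Its log2 change was 0.65 (standard error 0.0461, adjusted p = 1.7e-04, edgeR). CEBPG (chr19:33373330-33382686, plus strand), a C/EBP protein without an activation domain of its own that dimerizes with ATF4, was at 138.0, 138.2, 131.3 and 129.8 CPM in I/R+DMSO and at 192.1, 189.3, 190.7 and 199.1 CPM in I/R+Rk2. Its log2 change was 0.52 (standard error 0.0375, adjusted p = 1.78e-04, edgeR), and the groups were again far apart. With a gene length correction CEBPG was at 0.41 and ATF4 at 0.50 (adjusted p = 0.00197 and 1.15e-04, edgeR). By p-value CEBPB ranked 33rd and CEBPG 36th among the 12910 genes, and ATF4 ranked 195th. Exons of CEBPB share 231 bases with the antisense gene CEBPB-AS1, and whether the counting used strand is not given in the sources used here.

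ATF5, a bZIP factor whose translation is controlled through upstream reading frames much as that of ATF4 is, was the regulator that fell. ATF5 (chr19:49928702-49933935, plus strand) was at 64.9, 58.9, 68.3 and 63.0 CPM in I/R+DMSO and at 48.9, 48.7, 41.0 and 49.5 CPM in I/R+Rk2. Every I/R+Rk2 library was below every I/R+DMSO library, with I/R+Rk2 replicate 3 the lowest. The means were 63.8 ± 3.90 and 47.0 ± 4.02 CPM (SD, n = 4 per group), which made ATF5 1.36-fold lower (log2 change -0.44, standard error 0.0749, adjusted p = 0.00722, edgeR). In FPKM the groups did not overlap either, with I/R+DMSO at 26.0 to 31.1 and I/R+Rk2 at 22.1 to 22.5, and the log2 change was -0.32 (adjusted p = 0.0203, limma on log2(FPKM + 1)). ATF5 shares 626 exon bases with NUP62, a nuclear pore gene on the opposite strand, and NUP62 itself had a log2 change of -0.19 (adjusted p = 0.0173, edgeR). Without strand in the counting, reads of the shared bases could fall to either gene, and their part in the result was not tested.

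ATF3 and DDIT3, stress-induced genes downstream of ATF4, had the largest fold changes, and of the 10 genes they had the widest spread within I/R+DMSO. ATF3 (chr1:212565334-212620777, plus strand), a bZIP factor that mostly represses transcription, was at 41.5, 39.9, 43.0 and 13.8 CPM in I/R+DMSO and at 80.3, 95.6, 88.2 and 87.6 CPM in I/R+Rk2. The groups did not overlap, but I/R+DMSO replicate 4 held 294 ATF3 counts where the other 3 held 780 to 846. The means were 34.5 ± 13.9 and 87.9 ± 6.28 CPM (SD, n = 4 per group), 2.55-fold apart, with a log2 change of 1.35 (standard error 0.317, adjusted p = 0.0247, edgeR). Without I/R+DMSO replicate 4 the log2 change was 1.08 with an adjusted p of 4.35e-04 in edgeR. The adjusted p rose to 0.0594, 0.0557 and 0.0599 without I/R+Rk2 replicates 2, 3 and 4, respectively, in edgeR fits that kept I/R+DMSO replicate 4.

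DDIT3 (chr12:57516588-57521737, minus strand), which encodes CHOP, a bZIP factor linked to ER stress and cell death, was at 17.1, 7.87, 15.1 and 9.24 CPM in I/R+DMSO. In I/R+Rk2 it was at 23.0, 24.5, 32.4 and 22.3 CPM, above every I/R+DMSO library. I/R+DMSO replicates 2 and 4 were the low ones and I/R+Rk2 replicate 3 was the high one, from 167 to 322 and 440 to 702 counts per library in the respective groups. The means, 12.3 ± 4.47 and 25.6 ± 4.68 CPM (SD, n = 4 per group), gave a 2.08-fold difference, with a log2 change of 1.05 (standard error 0.262, adjusted p = 0.0297, edgeR). The call was lost when any of 6 libraries was left out. The edgeR adjusted p was then 0.0515 and 0.0601 without I/R+DMSO replicates 2 and 4, and 0.0526, 0.0607, 0.0703 and 0.0571 without I/R+Rk2 replicates 1 to 4, with log2 changes of 0.89 to 1.25 over all 8 fits. Exons of DDIT3 share 355 bases with MARS and 58 with MBD6, both on the opposite strand, and these had log2 changes of 0.15 and 0.39 (adjusted p = 0.0306 and 0.0364, edgeR). Another 105 exon bases are shared with AC022506.1, a protein-coding gene on the same strand that is no row of the count table. The part of reads from shared bases in the DDIT3 counts was not tested.

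Promoter sequence from RefSeq (GRCh38.p14) was matched to 9 of the 10 genes. The composite element that C/EBP and ATF4 dimers bind was searched as TGATGNAAN or its reverse complement NTTNCATCA, and the cyclic AMP response element, CRE, as TGACGTCA, on both strands from 250 bases before to 50 after the start. Only the first listed start of each gene was searched, although ATF3, for example, has 11 annotated transcripts. Elements at other starts or outside this window were therefore not seen. Within the window, ATF3 held the composite element at position -191, and it was the only one of the 9 that did. Over all 27305 promoters, 3.67% held it, as did 6 of 27 promoters of the ATF4 target genes described below (22.2%) and none of 38 promoters of other bZIP factors. PPP1R15A alone of the 9 held a full CRE, at position -58, beside 1.98% of all promoters. A CRE stood in 6 of 38 promoters of other bZIP factors (15.8%) and in 0 of 27 of ATF4 target genes. The AP-1 element TGANTCA stood in ATF5 and DDIT3, beside 7.76% of all promoters, 7.41% for ATF4 target genes and 7.89% for other bZIP factors. CCACG or CGTGG, the core of the ER stress element, stood in 6 of the 9 (66.7%). It was in 37.9% of all promoters, 66.7% for ATF4 target genes and 52.6% for other bZIP factors. None of these searched elements overlapped another in the stretches printed. The sequence from 250 bases before the RefSeq start up to the first annotated base of the GENCODE locus is shown for ATF3 and PPP1R15A, because each alone held its element, which is in capitals. The ATF3 stretch is chr1:212565157-212565333 (177 bases) and that of PPP1R15A is chr19:48872171-48872391 (221 bases), both on the plus strand and 5′ to 3′.
ATF3: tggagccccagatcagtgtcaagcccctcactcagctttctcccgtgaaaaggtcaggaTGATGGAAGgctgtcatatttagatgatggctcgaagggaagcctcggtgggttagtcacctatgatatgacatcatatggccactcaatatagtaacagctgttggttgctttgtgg
PPP1R15A: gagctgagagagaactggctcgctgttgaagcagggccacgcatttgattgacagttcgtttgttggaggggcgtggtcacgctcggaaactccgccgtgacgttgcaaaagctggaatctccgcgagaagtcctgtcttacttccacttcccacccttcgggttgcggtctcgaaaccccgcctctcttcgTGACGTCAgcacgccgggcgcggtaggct
A match of letters is a description of the sequence and was not tested as a binding site.

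PPP1R15A (chr19:48872392-48876057, plus strand), the stress-induced subunit that directs protein phosphatase 1 to eIF2, was at 161.9, 142.9, 159.0 and 136.6 CPM in I/R+DMSO and at 193.3, 215.1, 198.1 and 187.4 CPM in I/R+Rk2. The groups did not overlap, and the log2 change was 0.40 (standard error 0.0684, adjusted p = 0.007, edgeR). Its constitutive paralog PPP1R15B rose as well, from 116.2 ± 7.44 to 146.3 ± 5.90 CPM (SD, n = 4 per group), a log2 change of 0.33 (adjusted p = 0.00643, edgeR). With corrections for gene length and GC content PPP1R15B was at 0.16 and PPP1R15A at 0.45 (adjusted p = 0.0291 and 0.00263, edgeR). In FPKM, PPP1R15A was the more abundant of the pair in both groups, at 52.4 ± 3.87 against 18.4 ± 1.34 in I/R+DMSO and 70.9 ± 4.29 against 23.7 ± 1.02 in I/R+Rk2 (SD, n = 4 per group).

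TRIB3 (chr20:362835-397559, plus strand), a pseudokinase known to bind ATF4 and AKT, was very even in I/R+DMSO at 154.9, 151.7, 153.5 and 152.7 CPM. In I/R+Rk2 it was at 165.8, 167.4 and 170.9 CPM in replicates 1, 2 and 4 and at 308.1 CPM in replicate 3. All 4 were above I/R+DMSO, yet the log2 change of 0.41 (standard error 0.202) had an adjusted p of 0.198 in edgeR. Without I/R+Rk2 replicate 3 it was 0.13, with an adjusted p of 0.0558 in edgeR. FPKM showed the same library apart, at 106.5 against 57.5 to 60.8 in the rest of its group. That library was also the highest of its group for 18 of 46 ATF4 target genes and the lowest for 3, while 24.2% of all tested genes were highest there. The TRIB3 paralog TRIB1 had 128.0 ± 5.91 and 130.5 ± 3.50 CPM (SD, n = 4 per group; adjusted p = 0.698, edgeR), and TRIB2 stayed below 1 CPM in every library.

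NUPR1 (chr16:28532708-28539174, minus strand), a chromatin-associated protein induced by cellular stress, was at 22.5, 20.3, 21.6 and 14.1 CPM in I/R+DMSO and at 25.5, 26.2, 24.3 and 21.8 CPM in I/R+Rk2. The lowest I/R+Rk2 library lay within the range of I/R+DMSO, and the log2 change of 0.32 (standard error 0.143) had an adjusted p of 0.154 in edgeR. JDP2 (chr14:75427716-75474111, plus strand), a bZIP repressor of AP-1 target genes, was at 11.5, 6.74, 5.73 and 9.99 CPM in I/R+DMSO and at 7.64, 12.5, 9.26 and 12.4 CPM in I/R+Rk2, and the groups overlapped widely. Its log2 change was 0.30 (standard error 0.255, adjusted p = 0.453, edgeR), from 104 to 245 counts per library. For both genes the count and FPKM tables ordered the I/R+DMSO libraries differently. JDP2 was highest in replicate 1 by CPM and lowest there by FPKM (1.80), and NUPR1 was highest in replicate 1 by CPM and only in the lower pair by FPKM (8.93). The log2 change of JDP2 was 0.61 on the log2(FPKM + 1) scale and that of NUPR1 was 0.23, with adjusted p of 0.118 and 0.479 in limma.

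**Figure D2:**
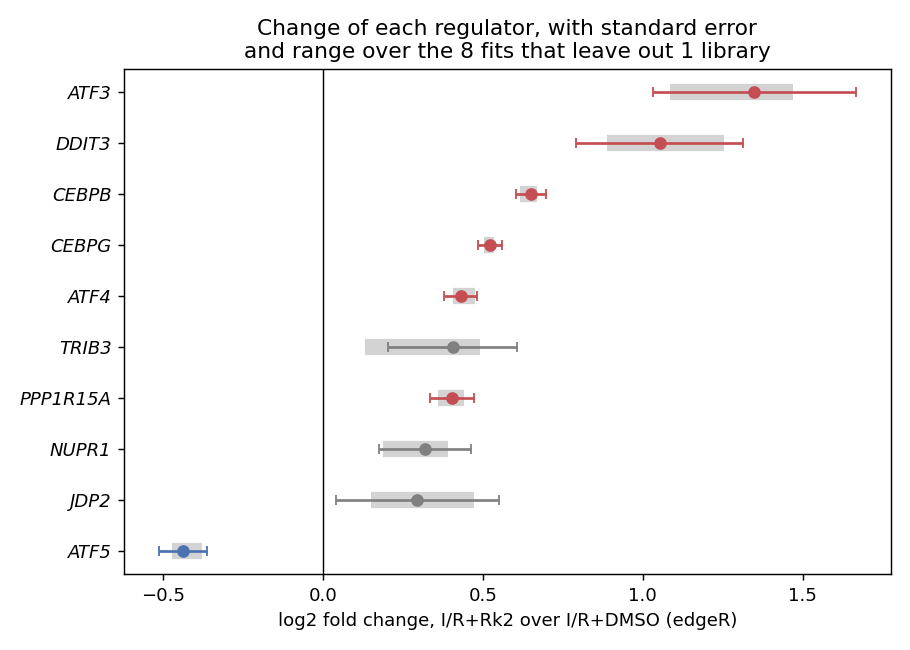
Log2 change of each regulator (horizontal axis), I/R+Rk2 over I/R+DMSO, from edgeR, with its standard error; red points were called higher, the blue point was called lower and grey points were not called. Grey bands span the 8 fits that each leave out 1 library and are narrow for CEBPG (0.50 to 0.54) and wide for ATF3 (1.08 to 1.47), DDIT3 (0.89 to 1.25) and TRIB3 (0.13 to 0.49).

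Single libraries did not rank alike across the 10 genes. I/R+DMSO replicate 4 was the lowest of its group for 5 of the 10 (ATF4, ATF3, CEBPG, NUPR1 and PPP1R15A) and the highest for none, while 23.9% of all tested genes were lowest there. I/R+DMSO replicate 1 was the highest for 6 of them and the lowest for none, while 33.3% of all tested genes were highest there. The coefficient of variation within I/R+DMSO ran from 0.88% for TRIB3 to 40.2% for ATF3, and within I/R+Rk2 from 1.54% for CEBPB to 34.5% for TRIB3. ATF3 and DDIT3 varied less in I/R+Rk2 (7.14% and 18.3%) than in I/R+DMSO (40.2% and 36.3%), a difference in spread that was not tested.

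The log2 ratio of each regulator to ATF4 within a library was compared between groups with two-sided exact permutation tests. For ATF5 the ratio was lower in I/R+Rk2 by 0.87, with means of -3.01 ± 0.0858 in I/R+DMSO and -3.89 ± 0.147 in I/R+Rk2 (SD, n = 4 per group). It was higher by 1.05 for ATF3, by 0.68 for DDIT3 and by 0.22 for CEBPB. Each of these 4 differences had an exact permutation p of 0.0286, the smallest that 4 libraries against 4 allow. Their adjusted p over the 9 ratios was 0.0643 (exact permutation test with Benjamini-Hochberg adjustment), so none of the 9 passed the correction. With that smallest p, ratios could pass only if most of the 9 reached it, so this outcome does not show that the ratios were unchanged. For CEBPG the ratio differed by 0.09 (exact permutation p = 0.2), for PPP1R15A by -0.03 (exact permutation p = 0.629) and for TRIB3 by -0.08 (exact permutation p = 0.771). Those of NUPR1 and JDP2 differed by -0.10 and -0.11, with exact permutation p of 0.514 and 0.657.

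Per length, ATF4 was by far the most abundant of the 10, at 282.2 to 301.4 FPKM (mean 288.8, n = 4) under DMSO and 372.8 to 408.8 FPKM (mean 389.5, n = 4) under Rk2. In I/R+DMSO it was followed by PPP1R15A (52.4 FPKM) and TRIB3 (51.5), whose libraries overlapped, then by CEBPB (28.9), ATF5 (28.0) and CEBPG (27.2), each overlapping the next. ATF3 (15.2), NUPR1 (11.1) and DDIT3 (10.5) formed a lower stretch in which neighbours again overlapped, and JDP2 was lowest at 2.49 FPKM. In I/R+Rk2 the order after ATF4 was TRIB3 (71.0 FPKM) and PPP1R15A (70.9), which overlapped, and then CEBPB at 46.4, apart from both neighbours. CEBPG (39.9) and ATF3 (38.8) came next and overlapped, as did ATF5 (22.3) and DDIT3 (21.5), followed by NUPR1 (12.7) and JDP2 (4.43), each apart from its neighbour above. ATF5 thus stood among the C/EBP genes in I/R+DMSO and beside DDIT3 in I/R+Rk2, while ATF3 moved up to the level of CEBPG.

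**Figure D3:**
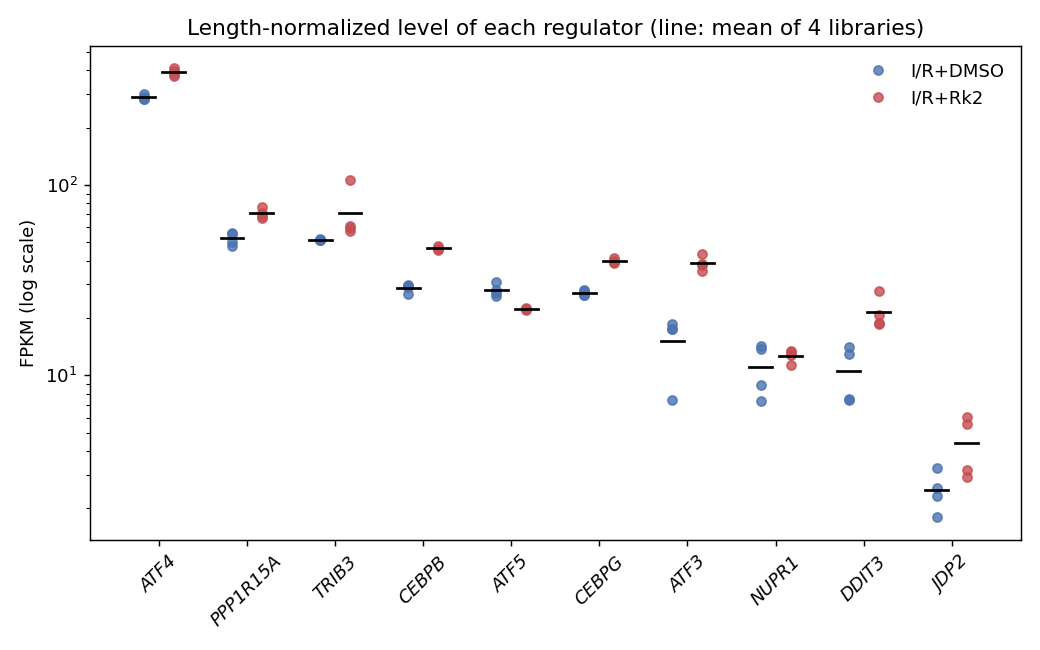
FPKM (vertical axis, log scale) of the 10 regulators in each library, I/R+DMSO in blue and I/R+Rk2 in red, with black lines at the mean of 4 libraries; genes are ordered by their I/R+DMSO mean. ATF5 is the gene whose I/R+Rk2 points lie below its I/R+DMSO points (means 22.3 and 28.0 FPKM).

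Genes that ATF4 is known to activate were higher in I/R+Rk2 in large part. Of 47 listed target genes 46 were tested, of which 36 were called higher, none was called lower and 10 were not called. The share called higher was 78.3%, against 11.0% of all tested genes. The log2 changes of the 46 ran from -0.11 to 2.06 with a median of 0.52. This list, like the others here, was chosen with earlier results of these data known, so the contrast is not independent support. STC2, a secreted glycoprotein, rose from 52.7 ± 1.95 to 150.0 ± 2.03 CPM (SD, n = 4 per group) and had the smallest p of all tested genes. INHBE, a hepatic activin subunit, had the second smallest p and rose from 22.7 to 89.8 CPM, a log2 change of 1.98. ASNS, asparagine synthetase, rose from 216.8 to 433.6 CPM (log2 change 1.00), and ADM2, a peptide of the calcitonin family, from 17.1 to 48.2 CPM (log2 change 1.49). The log2 change of ATF4 RNA itself was 0.43, and whether these 4 differed from it was not tested (adjusted p = 1.89e-06 for STC2, 5.44e-06 for INHBE and ASNS, and 3.38e-05 for ADM2, edgeR).

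Among 9 tested DDIT3 target genes, 6 were called higher, 1 lower and 2 not, with a median log2 change of 0.25. The shares were 66.7% higher and 11.1% lower, beside 11.0% and 7.24% of all tested genes. CHAC1, a glutathione-degrading enzyme that ATF4 and DDIT3 both activate and that is also on the list of ATF4 targets, rose from 9.84 to 33.1 CPM (log2 change 1.75, adjusted p = 1.09e-04, edgeR). PMAIP1 and BCL2L11, proapoptotic members of the BCL2 family, were 1.32-fold and 2.84-fold higher (adjusted p = 0.00296 and 0.0147, edgeR). In FPKM, with limma on log2(FPKM + 1), BCL2L11 had a log2 change of only 0.35 (adjusted p = 0.0433), and without the FPKM filter its adjusted p was 0.0543. The call of BCL2L11 was also lost without I/R+DMSO replicate 4 and I/R+Rk2 replicate 3 together (adjusted p = 0.0801, edgeR). ERO1A, an ER oxidase, had a log2 change of 0.15 (adjusted p = 0.0246, edgeR) that turned to -0.08 (adjusted p = 0.212, edgeR) with corrections for gene length and GC content. Its adjusted p was 0.0569 without I/R+DMSO replicate 3 and 0.068, 0.0693 and 0.0642 without I/R+Rk2 replicates 1, 2 and 4 in edgeR. BCL2L11 was at 13.7 CPM in I/R+Rk2 replicate 2 and at 35.3 to 37.2 CPM in the rest of that group. TXNIP, a thioredoxin-binding protein, fell from 56.8 to 35.2 CPM (log2 change -0.69, adjusted p = 2.03e-04, edgeR). The number of these genes called fell from 7 to 4 without I/R+Rk2 replicate 1, 2 or 4.

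Upstream of the regulators, 5 of 24 genes that act on eIF2 or its phosphorylation were called higher and none lower, with a median log2 change of 0.03. The share called higher was 20.8%, beside 11.0% of all tested genes, of which 7.24% were called lower. The calls were 4 higher and 1 lower with a gene length correction, and 3 higher and 2 lower with corrections for length and GC content. EIF2AK3 (PERK), the eIF2 kinase of the ER, rose from 28.3 ± 2.89 to 54.3 ± 5.28 CPM (SD, n = 4 per group), a log2 change of 0.94 (adjusted p = 8.54e-04, edgeR). EIF2AK2 (PKR), the kinase that senses double-stranded RNA, had a log2 change of 0.35 (adjusted p = 0.00521, edgeR). With corrections for length and GC content EIF2AK2 was at 0.03 (adjusted p = 0.722, edgeR), and in FPKM, where its groups overlapped, at 0.20 (adjusted p = 0.233, limma). The heme-regulated kinase EIF2AK1 and the amino acid sensor EIF2AK4 (GCN2) were not called, with log2 changes of 0.09 and 0.08 (adjusted p = 0.212 and 0.264, edgeR). DNAJC3, an ER cochaperone that restrains PERK and PKR, rose (log2 change 0.52, adjusted p = 3.58e-04, edgeR), as did PPP1CB, a catalytic subunit of protein phosphatase 1 (0.24, adjusted p = 0.00521, edgeR). With the same corrections the change of PPP1CB turned to -0.05 and that of DNAJC3 fell to 0.26 (adjusted p = 0.353 and 0.0317, edgeR). The FPKM of PPP1CB did not pass the threshold (adjusted p = 0.0717, limma). Of 16 genes of the ER unfolded protein response, 9 were called higher (56.25%, beside 11.0% of all tested genes), none lower and 7 not. Their median log2 change was 0.34. DNAJC3 counts here too. DNAJB9, an ER cochaperone, had the smallest p of the list (50.9 to 132.4 CPM, log2 change 1.38), and EDEM1 (0.84) and SEL1L (0.53), both of ER-associated degradation, were with DNAJC3 the next 3 by p (adjusted p = 2.11e-05, 3.37e-04 and 7.7e-04, edgeR). With the length and GC corrections DNAJB9 was at 1.25, EDEM1 at 0.66 and SEL1L at 0.22 (adjusted p = 3.2e-05, 1.42e-04 and 0.013, edgeR).

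Of 44 tested genes for other bZIP factors, 9 were called higher, 2 lower and 33 not, with a median log2 change of 0.09. The shares were 20.5% higher and 4.55% lower, beside 11.0% and 7.24% of all tested genes. With a gene length correction 5 were called higher and 3 lower. NFIL3, a bZIP repressor, rose from 46.2 to 75.3 CPM (log2 change 0.70, adjusted p = 6.58e-05, edgeR). CREB3L2, a membrane-bound factor of the secretory pathway, had a log2 change of 0.71, BACH1, a heme-regulated repressor, one of 0.64, and MAFG, a small MAF protein, one of 0.49 (adjusted p = 0.00249, 0.00478 and 8.14e-04, edgeR). CEBPD was lower, with a log2 change of -0.40, from 100.3 ± 3.13 to 76.1 ± 3.47 CPM (SD, n = 4 per group; adjusted p = 0.00164, edgeR), opposite in direction to CEBPB and CEBPG. NFE2L3 was called lower on counts (log2 change -0.23, adjusted p = 0.00947, edgeR) but not on FPKM (-0.14, adjusted p = 0.173, limma). XBP1, which is on both this list and that of the unfolded protein response, was not called (log2 change 0.39, adjusted p = 0.241, edgeR).

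**Figure D4:**
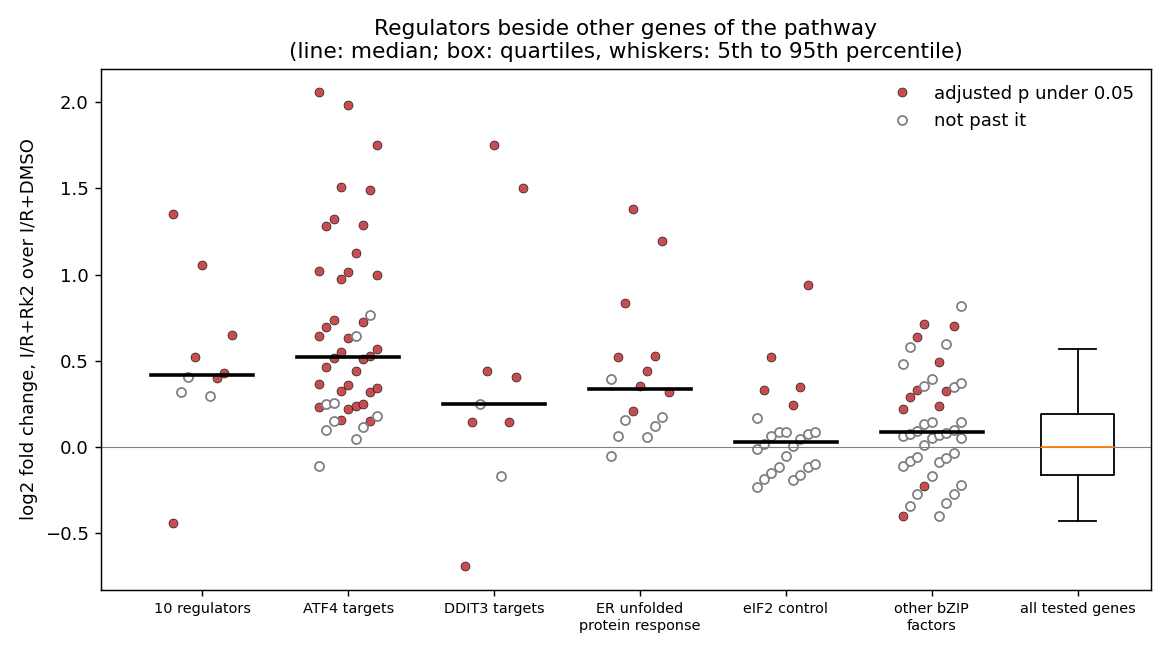
Log2 changes (vertical axis) of the 10 regulators and of the tested genes of 5 other lists, filled where adjusted p was under 0.05 and open otherwise, with black lines at the medians; the box on the right gives the quartiles and the 5th and 95th percentiles (-0.43 and 0.57) of all 12910 tested genes. The medians are 0.42 for the regulators, 0.52 for ATF4 targets, 0.25 for DDIT3 targets, 0.34 for the ER unfolded protein response, 0.03 for eIF2 control and 0.09 for other bZIP factors.

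The genes with the most similar profile were found for the 3 regulators past 1.5-fold, by the root mean square difference of log2 CPM, each centred on its own mean, over the 8 libraries and 12027 genes outside the lists. For CEBPB these were CREBRF, a regulator of CREB3 proteins (difference 0.0470), IDI1, an enzyme of isoprenoid synthesis (0.0559), and RB1CC1, a starter of autophagy (0.0570). IDI1 was at 154.5, 140.7, 147.7 and 137.6 CPM in I/R+DMSO and at 240.8, 238.6, 229.4 and 232.9 CPM in I/R+Rk2. For ATF3 they were PPARGC1A, a coactivator of gluconeogenic genes (0.202), PDE4D, a cyclic AMP phosphodiesterase (0.231), and STOX2 (0.321). PDE4D was at 27.1, 31.8, 27.8 and 12.3 CPM in I/R+DMSO and at 51.9, 49.8, 51.4 and 53.5 CPM in I/R+Rk2, and PPARGC1A was at 1.38, 1.46, 1.87 and 0.610 CPM and at 2.43, 3.29, 3.51 and 2.88 CPM. All 3 neighbours of ATF3 were, like ATF3, lowest in I/R+DMSO replicate 4. For DDIT3 they were TBX15 (0.258), ARMCX3 (0.262) and TMED7-TICAM2 (0.280), each lowest in I/R+DMSO replicate 2, as DDIT3 was. Neighbours were picked on these same 8 libraries, so a shared low library follows from the choice and is no separate result. STOX2 and TMED7-TICAM2 were not called (adjusted p = 0.0664 and 0.084, edgeR).

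Upstream start codons, the feature through which eIF2 phosphorylation acts on several of these mRNAs, were counted in the 5′ leader of the principal transcript, which the annotation gives for 9 of the 10 genes. The ATF4 leader, the longest of the 9 at 882 bases, held 7 upstream ATGs, CEBPG held 3, and ATF5, DDIT3, NUPR1 and PPP1R15A held 2 each. ATF3 held 1, and CEBPB and JDP2 held none before their annotated coding starts. At least 2 were thus found in 6 of the 9 genes, and in 32.3% of the 8918 tested genes with such a transcript. All 9 leaders, of 209 to 882 bases, were longer than the median of 204 bases for tested genes. A longer leader has more room for an ATG, and the count was not adjusted for length. Whether the count bears on the RNA changes was not tested, and RNA levels do not show translation. This count was chosen after the values were seen.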

How the data were processed

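Total RNA of 8 HuH7 libraries, 4 for each group as labelled, was used by the authors to prepare libraries with an MGIEasy kit. The authors deposited raw counts per gene, without normalization, and FPKM, normalized for transcript length and depth. The submitters' processing notes name FastQC 0.11.5, HISAT2 2.2.1, StringTie 1.3.3 and build hg38, while the counting tool, annotation and strand setting are not given in the sources used here. Symbols turned into dates (22 of 15767 count rows, 0.111% of counts) were left out.

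The 12910 genes that reached 10 counts in 4 or more libraries were normalized by TMM and tested with edgeR 4.0.16's robust quasi-likelihood test in R 4.3.3, with treatment as the only term. FPKM were tested with limma 3.58.1 on log2(FPKM + 1) at a mean FPKM of at least 0.5, a scale that understates changes of low genes. Tests were checked on simulated counts. Alternatives were DESeq2 1.42.0, RLE factors, library size only, no filter, at least 50 counts in every library, a pseudocount of 0.1, no FPKM filter, a replicate block, loess corrections (span 0.5) for gene length or length and GC content, and leaving out each library. A fit without I/R+DMSO replicate 4 and I/R+Rk2 replicate 3 together was added after seeing the data.

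The 10 members and the gene lists were chosen with earlier results of these data known. Named beside the members are up to 4 called genes per list and direction with the smallest p, the paralogs of TRIB3, NUPR1 and PPP1R15A (NUPR2 is no row of the count table), the eIF2 kinases, overlapping genes, XBP1 (named after its values were seen), and the 3 nearest profiles of members called above 1.5-fold. Gene loci and leaders came from GENCODE v29.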

Additional observations from a re-analysis of the deposited data

Results flagged for a closer look

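In 6 of 70 groups of 4 libraries examined, 3 of them among the 20 of the regulators, the most extreme library's gap to its nearest neighbour was, as a share of the group's range, above Dixon's critical value for 4 samples. The critical value is set so that chance gives this in about 1 in 20 groups. Over all tested genes, a given library stood apart as the highest of its group in 0.480% to 2.57% of genes. It stood apart as the lowest in 0.558% to 2.15%. Each share is for 1 library and 1 end, and they add up over the 4 libraries of a group and both ends. A single share can therefore not be set beside the 6 of 70. Whether the genes examined differ from all tested genes in this was not tested. ATF3 in I/R+DMSO replicate 4 was the lowest, at 13.79 CPM against 39.85 to 42.98 in the rest of its group. TRIB3 in I/R+Rk2 replicate 3 was the highest, at 308.1 CPM against 165.8 to 170.9. ATF5 in I/R+Rk2 replicate 3 was the lowest, at 41.03 CPM against 48.71 to 49.54, but in FPKM the same library, at 22.53, was the highest of its group. Outside the regulators, BCL2L11 was at 13.73 CPM in I/R+Rk2 replicate 2 against 35.26 to 37.19, EIF2AK2 at 28.16 CPM in I/R+DMSO replicate 1 against 31.08 to 31.44, and NFE2L3 at 93.79 CPM in I/R+DMSO replicate 2 against 88.54 to 88.94. The cause of these gaps was not tested.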

How the results depend on the processing

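ATF4, ATF5, CEBPB, CEBPG and PPP1R15A kept their direction and their call in all 20 alternatives, ATF3 in 16 and DDIT3 in 13. TRIB3, NUPR1 and JDP2 were called in none. When libraries were left out one at a time, the number of regulators called was 5 to 7, of ATF4 targets 33 to 37, of eIF2 control genes 5 to 6, of other bZIP factors 9 to 11, of ER unfolded protein response genes 8 to 11 and of DDIT3 targets 4 to 7. Replicate numbers did not pair the samples: same-numbered libraries deviated from their group means with correlations of -0.0095 to 0.0845, and only replicate 4 correlated best with its own number. With the replicate block, 6 regulators were called (ATF3 had an adjusted p of 0.0503 in edgeR), and 3 DDIT3 targets (BCL2L11 had an adjusted p of 0.0652 in edgeR). Without I/R+DMSO replicate 4 and I/R+Rk2 replicate 3, 6 regulators were called (DDIT3 had an adjusted p of 0.117 in edgeR), and 3 DDIT3 targets. Of the eIF2 control genes, 8 were called by DESeq2 (6 higher, 2 lower) and 3 in each of the FPKM fits (limma, a pseudocount of 1 or 0.1, or no filter), the last of which called 4 DDIT3 targets. Corrected for gene length and GC content, PPP1CB was at -0.052 and ERO1A at -0.079 (log2). TRIB1, not called, was at -0.059 after the length correction and between -0.001 (without I/R+DMSO replicate 1) and 0.051 with a library left out. No ratio to ATF4 passed the correction in FPKM or after the length correction, while 4 of 9 were below 0.05 unadjusted on CPM. Paired by replicate number no ratio could pass, since the smallest exact permutation p is 0.125, so pairing decides nothing here. Leaving out a library was not run for the ratios, since the smallest exact permutation p is then 0.0571. The causes of these changes were not tested. Of the regulators, JDP2 and DDIT3 had the fewest counts per library, down to 104 and 167.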
